A study of Mus musculus with 12 samples.

Results

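The protocadherins of this study were taken as every gene of the deposited expression table whose name starts with Pcdh, which gave 36 of 25965 table entries. Of these, 24 belong to the clustered protocadherins on mouse chromosome 18 and 12 are non-clustered genes spread over the genome. The clustered entries are 22 single Pcdhb genes, 1 entry for the Pcdha locus (named Pcdhac1) and 1 entry for the Pcdhg locus (named Pcdhga11). In mm10, the build of the deposited coordinates, the Pcdha entry covers chromosome 18, 36930285 to 37187657, the Pcdhb genes lie between 37264998 and 37521419, and the Pcdhg entry covers 37674335 to 37841873. The Pcdha stretch spans all 14 GENCODE alpha genes and the Pcdhg stretch holds 20 of 22 gamma genes, so the choice among alpha or gamma isoforms cannot be read from these values, whereas each Pcdhb gene has its own.

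Protocadherins are the largest subgroup of the cadherin family of cell adhesion proteins. In the clustered group, each neuron switches on a few promoters by a chance-like choice, and the resulting mix on the cell surface lets a neuron tell its own branches from those of others. Alpha and gamma variable exons are each joined to constant exons shared within their locus, while beta genes are made of 1 coding exon each. Most of the promoters bind CTCF and cohesin and are controlled by DNA methylation, and Smchd1, a non-canonical SMC protein first known from X inactivation, acts at these clusters in other mouse cells. Non-clustered protocadherins of the delta groups (Pcdh1, Pcdh7, Pcdh9 and Pcdh11x; Pcdh8, Pcdh10, Pcdh17, Pcdh18 and Pcdh19) are expressed in tissue-restricted patterns in the embryo, with roles in cell sorting and axon growth.

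RNA was sequenced from C57BL/6 mouse embryonic stem (ES) cells, labelled male, carrying either a floxed Smchd1 allele pair (fl/fl) or its deleted form (del/del). The cells were sampled as ES cells (named day 1 in the sample titles and day 0 in the growth protocol) and at day 5 and day 8 of differentiation towards neuromesodermal progenitors, the caudal cells that give spinal cord and trunk mesoderm. LIF was withdrawn and Fgf2 given, a Gsk3 inhibitor followed 2 days later and Gdf11 after another 4 days, so that day 8 cells had also met Gdf11. Each of the 6 groups held 2 libraries, from ES line 1 and line 3, and each line came from 1 blastocyst. All del/del cells had been transduced with MSCV-Cre-puro and selected with puromycin, whereas the fl/fl cells of the same line were untransduced, so deletion and transduction with selection cannot be told apart. No source says that libraries of a group differ in more than the line, so p-values measure the spread between these samples only.

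The libraries held 1.51 to 8.67 M reads in genes (M, mega), out of 14.9 to 34.0 M, and the shallowest was the fl/fl day 8 library of line 3. As a check of the genotype, Smchd1 had 1212 and 1495 reads in the fl/fl ES cells and 197 and 271 in the del/del ones. Its day 5 reads were 366 and 919 in fl/fl, then 102 and 104 in del/del, and its day 8 reads 728 and 111, then 161 and 140. After scaling to the median gene, Smchd1 fell by 2.84, 2.07 and 2.43 on the log2 scale at the 3 days (limma, adjusted p of 0.00187, 0.0430 and 0.00229). Without that scaling no gene, Smchd1 included, had an adjusted p under 0.05 at day 1 or day 5. With the ES line as a block none did at day 5. Summed markers of neuromesodermal progenitors (13 genes) were at 128 to 198 reads per M scaled reads at day 5 and at 52.0 to 64.0 at day 8, against 45.9 to 56.3 at day 1. At day 8 Wnt3a had 0 reads in fl/fl and 0 and 3 in del/del. Summed ES markers (12 genes) lay between 235 and 297 in ES cells and between 73.5 and 137 at day 8, with none at 0 reads. Here and below a rate is a gene's reads per M reads after each library was scaled so that the median gene lay at the same level; without that scaling, the median gene itself differed between genotypes by 0.90 (log2) at day 8, by -0.40 at day 5 and by 0.15 at day 1.

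The beta genes were at a few reads per library in ES cells and at day 5, and stood highest in del/del cells at day 8. Summed over the 21 beta genes other than Pcdhb22, fl/fl libraries had 7 and 7 reads at day 1, 8 and 21 at day 5, and 36 and 3 at day 8 (line 1, then line 3). In del/del libraries the sums were 6 and 16, then 4 and 15, then 181 and 236. In rates, the day 8 libraries were at 4.28 and 5.99 (del/del) and at 1.21 and 0.434 (fl/fl). Both del/del day 8 libraries thus lay above all other libraries, and at day 1 and day 5 the genotypes overlapped. The pooled rate at day 8 was 4.81 times as high in del/del (95% exact interval 3.46 to 6.86, from 417 and 39 reads). That ratio was 11.8 when line 1 was left out of the fl/fl day 8 group and 4.23 when line 3 was left out. At day 1 the ratio was 1.27 (0.623 to 2.69) and at day 5 it was 0.911 (0.483 to 1.68). Such intervals cover counting error only, and reads without molecular identifiers need not be independent molecules; no test was made over the summed genes.

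The same sums set the days apart within each genotype. Over the 21 genes, the del/del rate at day 8 was 11.9 times that at day 5 (7.53 to 19.99) and 19.6 times that at day 1 (12.8 to 31.6). In fl/fl cells the day 8 rate was 2.26 times that at day 5 (1.36 to 3.78) and 5.18 times that at day 1 (2.75 to 10.3). At least 1 read was found for 8 of the 22 beta genes in fl/fl and 9 in del/del at day 1, for 15 and 9 at day 5, then for 11 and 22 on the last day. The day 8 counts rest on unequal depth, since the median-scaled reads of the 2 libraries came to 81.6 M in del/del and 36.7 M in fl/fl, so that 0 reads in fl/fl allow a rate of up to 0.0817.

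**Figure D1:**
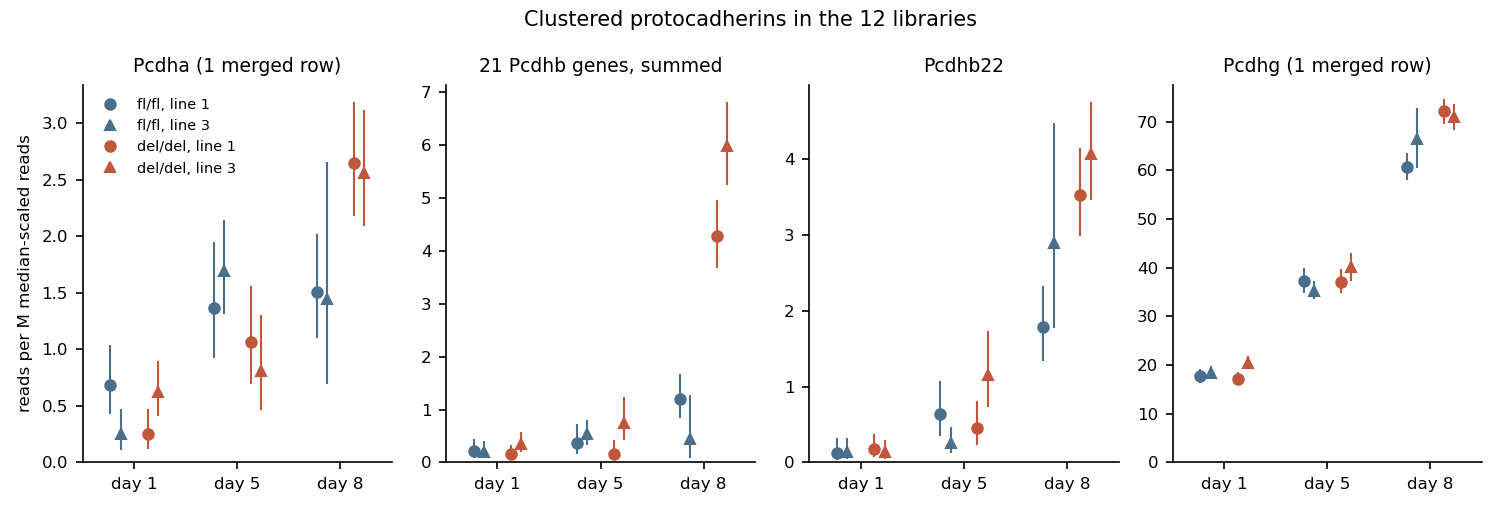
Rates of the clustered protocadherins in each library, in reads per M median-scaled reads, at day 1, day 5 and day 8; colours give the genotype, circles line 1, triangles line 3, and bars the 95% exact counting interval. The 21 summed beta genes stand at 4.28 and 5.99 in del/del at day 8 and at most at 1.21 elsewhere, while the Pcdhg locus rises with the days to 72.1 and 71.0 in del/del and 60.7 and 66.5 in fl/fl.

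By gene, the pooled day 8 rate was higher in del/del for 22 of 22 beta genes, against 47.4% of all genes with any day 8 read. For 13 of them the lower bound of the ratio was above 1, while for the other 9 the reads were too few to show a higher rate. Most of those 9 had 0 reads in fl/fl, where any del/del read makes the rate higher. In 17 of 22, both del/del libraries were above both fl/fl libraries, against 27.6% of all such genes. In fl/fl at day 8, at the lower depth, 11 of the 22 had 0 reads, and 19 had reads in both del/del libraries. Outside day 8, no beta gene other than Pcdhb22 exceeded 5 reads in a library, and 4 had no read in any day 1 or day 5 library.

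Among single beta genes, Pcdhb11 had 12 and 27 reads in del/del against 1 in fl/fl over both libraries, a ratio of 17.6 (2.97 to 711). Pcdhb14 had 15 and 17 against 1, a ratio of 14.4 (2.41 to 586). With 1 control read each, these intervals are wide. Genes with more control reads gave smaller and better bounded ratios. Pcdhb17 had 29 and 22 reads against 5 in all, at 4.59-fold (1.84 to 14.7). Pcdhb16 had 15 and 39 against 5 and 3, at 3.04-fold (1.44 to 7.39). Its libraries overlapped between genotypes, with rates of 0.355 and 0.990 in del/del and 0.168 and 0.434 in fl/fl. Pcdhb20 was 5.40-fold higher (1.71 to 27.4), Pcdhb5 5.62-fold (1.40 to 49.0), Pcdhb21 4.16-fold (1.50 to 16.1) and Pcdhb19 2.10-fold (1.01 to 4.91). Another 4 had no control read and more than 10 reads in del/del. Taken against a floor of 3 reads over the group, Pcdhb2 was 2.40-fold higher and Pcdhb18 2.10-fold. Against the same floor Pcdhb12 was 1.80-fold higher and Pcdhb9 1.65-fold. These values leave out the counting error of the del/del reads and are not lower bounds. The remaining genes had 1 to 12 reads in del/del at day 8. The sources used here do not say how reads matching several beta genes were counted, and beta genes are close in sequence, so values of single beta genes are uncertain, and the sums too where such reads were dropped or counted more than once.

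**Figure D2:**
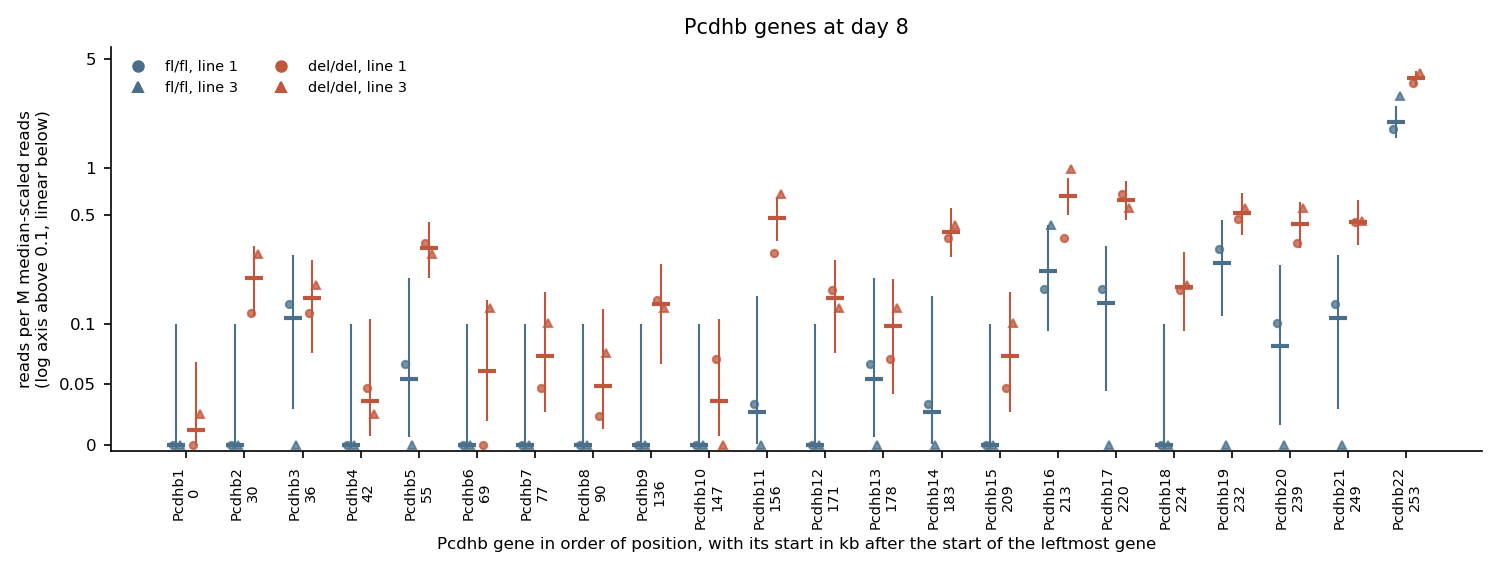
Day 8 rates of the 22 Pcdhb genes in their order along the chromosome, in reads per M median-scaled reads on an axis that is linear below 0.1 and logarithmic above; dashes are pooled rates with 95% exact counting intervals and points are libraries. The del/del dash lies above the fl/fl dash for all 22 genes, 11 of which have 0 fl/fl reads, and Pcdhb22 is the highest in both genotypes.

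Pcdhb22 had the most reads of the beta genes in both genotypes at day 8 and carried 42.6% of the beta reads of del/del and 65.2% of those of fl/fl at day 8. Its reads were 4 and 5, 14 and 10, and 53 and 20 in fl/fl at days 1, 5 and 8, and 7 and 6, 11 and 23, and 149 and 160 in del/del. The day 8 rates were 1.78 and 2.89 for fl/fl and 3.53 and 4.06 in del/del, which do not overlap. Pooled, the ratio was 1.90 (1.47 to 2.49), but the fitted log2 difference of 0.74 ± 0.62 (SE) did not pass (limma, adjusted p = 0.409). Only the 4 day 8 libraries let Pcdhb22 into the test, so its rises to day 8 are not read as tests. From day 1 to day 8 its fitted level rose by 4.11 in fl/fl and by 4.62 in del/del, both on the log2 scale. In pooled reads the day 8 rate of Pcdhb22 was 5.10 times that at day 5 in fl/fl (3.18 to 8.46). The same ratio was 4.93 in del/del (3.46 to 7.25). Per kb of GENCODE exon, the 3 highest beta genes of del/del at day 8 were Pcdhb22 (0.573 reads per kb per M), Pcdhb17 (0.134) and Pcdhb16 (0.127). Pcdhb20 was close behind at 0.124. The exon length of Pcdhb22 (6.61 kb) exceeds its deposited stretch (37518353 to 37521419), and lengths of other beta genes differ too. These rates and ranks therefore hold for the GENCODE lengths only.

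Most beta genes were too low for the test across all genes, which took genes above a deposited log2 value of 0 in at least 2 libraries; of the 22, only Pcdhb22 met this. A lower limit of 3 reads in at least 2 libraries, added after the data were seen, let 16 beta genes in, of which 6 (Pcdhb2, Pcdhb9, Pcdhb11, Pcdhb12, Pcdhb13 and Pcdhb18) met it only through the del/del day 8 libraries. With that limit 0 beta genes passed between the genotypes at day 8 in the limma model with a trend (12.2% of 18702 genes called), and 5 had an unadjusted p under 0.05 (11 with voom). With limma's voom on the recovered reads, Pcdhb11 passed. Since these 6 genes, Pcdhb11 among them, were let in by the group in which they are high, their fitted differences with that group are not read as tests. The same holds for Pcdhb3, Pcdhb5, Pcdhb7 and Pcdhb19, which reached 3 reads in only 1 library outside that group. From day 5 to day 8 in del/del, where 8.88% of genes were called, Pcdhb16, Pcdhb20, Pcdhb21 and Pcdhb22 rose. Pcdhb22 did not pass with the ES line as a block (adjusted p = 0.0511), and Pcdhb19 was left aside. By pooled reads Pcdhb20 was 9.77-fold higher at day 8 than at day 5 in del/del (2.52 to 83.8). Pcdhb16, with 0 reads at day 5, was 9.77-fold above a floor of 3 reads, given without an interval.

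The Pcdha locus was low at all days and did not pass between genotypes. Pcdhac1, the entry for the locus, had 22 and 9 reads in fl/fl at day 1, 30 and 67 at day 5 and 45 and 10 at day 8, against 10 and 28, 26 and 16, and 112 and 101 in del/del. The day 8 rates were 2.65 and 2.56 in del/del and 1.51 and 1.45 in fl/fl, without overlap, and the pooled ratio was 1.74 (1.29 to 2.39). At day 5 the order was the other way, with a ratio of 0.602 (0.409 to 0.873), and at day 1 the ratio was 0.993 (0.602 to 1.65). The fitted day 8 difference of Pcdhac1 was 0.82 ± 0.56 (adjusted p = 0.316). Over the course, Pcdhac1 rose by 1.88 from day 1 to day 5 in fl/fl (adjusted p = 0.0209) and by 2.71 from day 1 to day 8 in del/del (adjusted p = 0.00208). The fl/fl increase to day 5 was lost without the day 1 library of line 3 or either day 5 library (adjusted p of 0.0615 to 0.189).

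The Pcdhg locus was by far the most read of the 3 and rose with differentiation in both genotypes. Pcdhga11, the entry for the locus, had 571 and 668 reads at day 1, 819 and 1399 at day 5 and 1811 and 460 at day 8 in fl/fl, and 673 and 924, 908 and 797, and 3047 and 2795 in del/del. Day 1 rates were 17.2 to 20.46, those of day 5 were 35.3 to 40.1 and those of day 8 were 60.7 to 72.1, with no overlap between days. Over the whole course Pcdhga11 rose by 1.81 (log2) in fl/fl (adjusted p = 1.8e-06) and by 1.93 in del/del (adjusted p = 1.13e-06). Between genotypes at day 8 Pcdhga11 differed by 0.17 ± 0.12 (adjusted p = 0.346), with a pooled ratio of 1.16 (1.10 to 1.22). On the deposited scale, on which the median gene is 0.90 higher in del/del, that difference was 1.05 and passed (adjusted p = 0.0429).

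Neighbours and regulators of the clusters passed at shares near or below the 15.0% of all genes called at day 8. Of the flanking genes of the clustered loci, 11 of 12 were tested and 1 fell at day 8 in del/del, Taf7, a TFIID subunit gene between the beta and gamma clusters, by 0.87 on the log2 scale (adjusted p = 0.0167, and 0.0679 without the shallowest library). Their median difference was 0.30, against 0.02 for all genes tested. Of the regulators of the clustered loci, 16 of 18 were tested, 2 rose and none fell, with a median of 0.06. These were Dnmt3a, a de novo DNA methyltransferase, by 0.50 (adjusted p = 0.0213, and 0.0870 without the shallowest library), and Pds5b, a cohesin cofactor, by 0.82 (adjusted p = 0.0278, and 0.147).

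Among non-clustered protocadherins, Pcdh7 and Pcdh18 rose and Pcdh1 and Pcdh15 fell in del/del cells at day 8. Of the 36 protocadherins 11 were tested, 3 of them clustered, and these 4 passed, against 15.0% of the 14063 genes tested (1118 higher and 991 lower). Pcdh10 was tested only because of its 2 del/del day 8 libraries. The median difference of the 11 was 0.17 and that of all genes tested was 0.02. When the shallowest of the 12 libraries was left out, Pcdh7 alone of the 11 passed, against 2.13% of genes. By reads, 5 of the 12 non-clustered genes had both del/del day 8 libraries above both fl/fl libraries, against 27.6% of all genes with a day 8 read, and 4 had both below, against 25.5%.

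The starts of 4 non-clustered genes are shown: Pcdh7 and Pcdh18, which rose in del/del at day 8, and Pcdh10 and Pcdh8, 2 low genes whose reads differ between days. Each is the 250 bases before the RefSeq start of the gene (GRCm38.p6, the assembly named mm10), read in the direction of transcription, with CG pairs in capitals. Pcdh7 lies at chr5:57717831-57718080 (plus strand), Pcdh18 at chr3:49757317-49757566 (minus strand), Pcdh10 at chr3:45378148-45378397 (plus strand) and Pcdh8 at chr14:79771313-79771562 (minus strand).
Pcdh7: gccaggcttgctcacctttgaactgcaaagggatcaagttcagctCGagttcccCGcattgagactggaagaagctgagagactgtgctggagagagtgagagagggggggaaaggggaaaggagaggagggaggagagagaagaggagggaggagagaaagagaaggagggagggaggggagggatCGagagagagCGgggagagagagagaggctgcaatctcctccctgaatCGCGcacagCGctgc
Pcdh18: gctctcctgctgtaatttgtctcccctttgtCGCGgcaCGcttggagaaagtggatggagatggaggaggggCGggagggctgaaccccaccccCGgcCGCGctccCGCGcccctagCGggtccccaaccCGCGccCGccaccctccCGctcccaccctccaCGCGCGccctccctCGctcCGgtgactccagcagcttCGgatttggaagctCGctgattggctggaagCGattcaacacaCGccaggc
Pcdh10: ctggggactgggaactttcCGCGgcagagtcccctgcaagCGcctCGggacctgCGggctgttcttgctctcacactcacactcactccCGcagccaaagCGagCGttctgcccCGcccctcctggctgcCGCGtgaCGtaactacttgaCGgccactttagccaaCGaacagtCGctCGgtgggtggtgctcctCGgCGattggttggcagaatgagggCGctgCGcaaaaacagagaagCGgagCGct
Pcdh8: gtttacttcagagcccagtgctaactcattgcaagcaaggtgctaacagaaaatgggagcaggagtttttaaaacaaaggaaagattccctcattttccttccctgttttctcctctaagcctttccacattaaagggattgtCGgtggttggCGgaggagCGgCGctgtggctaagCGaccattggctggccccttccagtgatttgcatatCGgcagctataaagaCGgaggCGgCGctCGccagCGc
The letters searched were CG, which reads the same on both strands, and 92.1% of 32851 RefSeq windows of this length hold at least 1, with a median of 6 and a 75th percentile of 16. Pcdh18 has 23 and Pcdh10 has 22, both above that percentile, while Pcdh8 has 11 and Pcdh7 has 7. RefSeq windows matched 9 of the 36 protocadherins, all non-clustered. No methylation was measured here.

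Pcdh18, a delta-2 protocadherin that binds the adaptor Dab1, rose in both genotypes by day 5 and differed between them at day 8. It had 17 and 20 reads in fl/fl at day 1, 120 and 160 at day 5 and 120 and 13 at day 8, against 7 and 27, 170 and 158, and 612 and 907 in del/del. Its rates were 0.179 to 0.598 in ES cells and 4.04 to 7.95 on day 5, and on day 8 fl/fl was at 4.03 and 1.88 and del/del at 14.5 and 23.0. The day 8 groups did not overlap. Those of day 5 did not either but were closer, at 5.46 and 4.04 in fl/fl and 6.96 and 7.95 in del/del. The pooled ratio at day 5 was 1.63 (1.38 to 1.92). By day 5 Pcdh18 rose by 3.12 (log2) in fl/fl (adjusted p = 0.00107) and by 4.51 in del/del (adjusted p = 0.000111). At day 8 the genotype difference was 2.73 ± 0.54, a 6.64-fold increase in del/del (adjusted p = 0.0150), with a pooled ratio of 5.14 (4.30 to 6.18). It was lost without the fl/fl line 3 library (2.18, adjusted p = 0.0873) and without the del/del line 3 library (adjusted p = 0.141) of day 8.

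Pcdh7, a delta-1 protocadherin that binds the phosphatase PP1, had a similar course. Its reads were 11 and 9, 68 and 116, and 129 and 7 in fl/fl, and 14 and 17, 71 and 43, and 652 and 560 in del/del, at days 1, 5 and 8. The day 8 rates were 4.33 and 1.01 in fl/fl and 15.4 and 14.2 in del/del, while at day 5 all 4 libraries lay between 2.16 and 3.09. Pcdh7 rose from day 1 to day 5 by 3.37 in fl/fl (adjusted p = 0.000820) and by 2.77 in del/del (adjusted p = 0.00269). It rose again from day 5 to day 8 in del/del, by 2.56 (adjusted p = 0.0152), but not without the del/del day 5 library from line 3 (0.0536) or either del/del day 8 library (0.0884 and 0.103). It differed by -0.52 between those days in fl/fl (adjusted p = 0.594). The genotype difference at day 8 was 2.82 ± 0.56, or 7.08-fold (adjusted p = 0.0150), and the pooled ratio was 4.01 (3.36 to 4.82). Without the shallowest library the difference was 1.78 (adjusted p = 0.0448), and without either del/del day 8 library it did not pass (adjusted p of 0.0587 and 0.122). Whether the genotype difference itself changed between day 5 and day 8 was tested, and it did not pass for Pcdh7 (3.09 ± 0.79, adjusted p = 0.247).

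**Figure D3:**
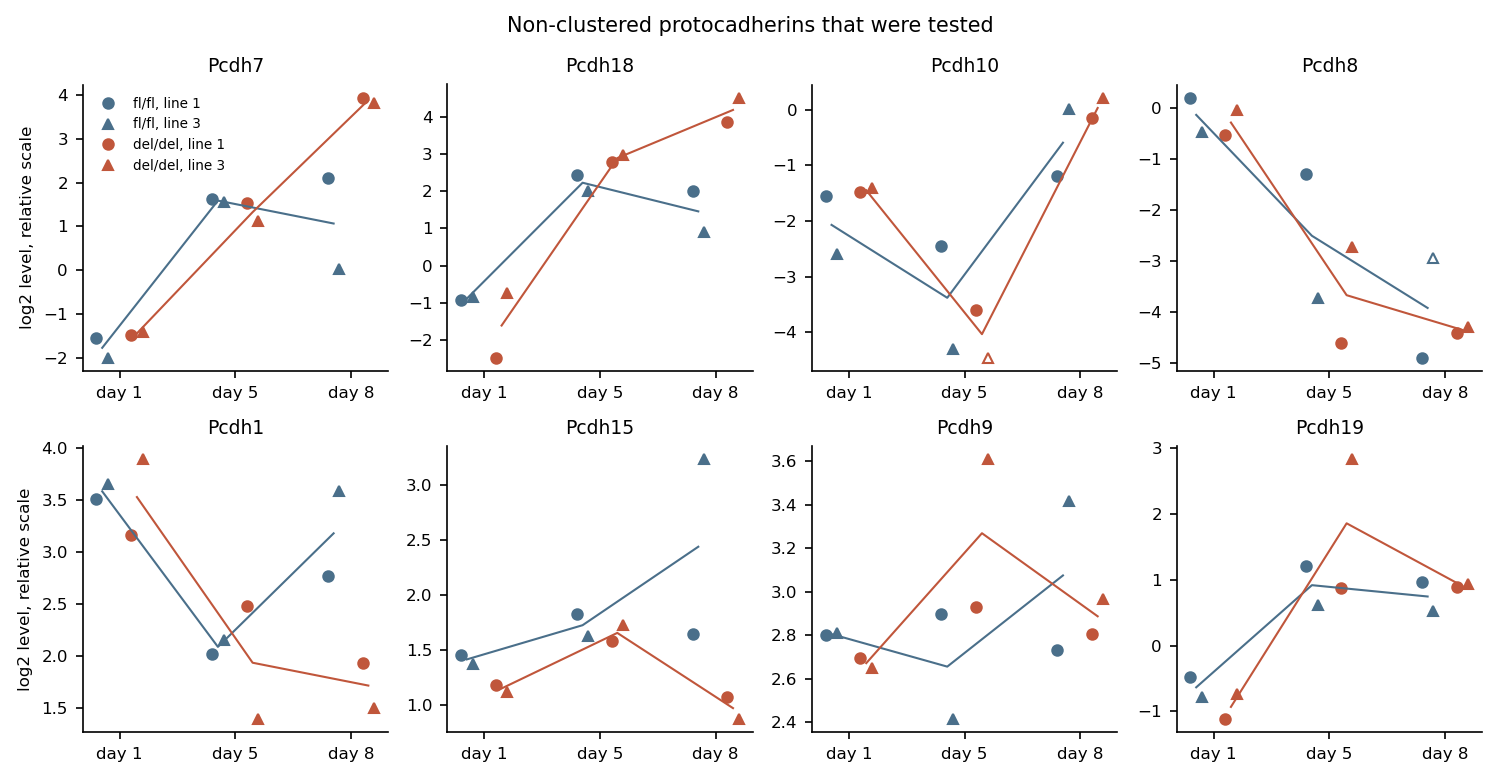
Levels of the 8 tested non-clustered protocadherins by day, as log2 values relative to the median gene of each library; symbols are libraries (circles line 1, triangles line 3), lines join group means, and open symbols are libraries with 0 reads, entered as 0.9 reads. Pcdh7 and Pcdh18 climb to day 5 in both genotypes, which stand furthest apart at day 8. Pcdh8 drops from day 1, and Pcdh9 passes in no contrast.

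Pcdh10 and Pcdh8, both delta-2 genes, were low. Pcdh10, with a role in axon outgrowth, had 11 and 6, 4 and 2, and 13 and 7 reads in fl/fl and 14 and 17, 2 and 0, and 38 and 46 in del/del. In del/del it fell by 2.59 to day 5 (adjusted p = 0.0225), a call lost on leaving out any of 3 libraries (0.0962 to 0.102), with array weights (0.0620) and with a pseudocount of 2 reads (0.0551). Its del/del rate at day 8 was 22.8 times that at day 5 (6.12 to 191, from 84 and 2 reads), given without a test because the del/del day 8 libraries alone let Pcdh10 into it. At day 8 the rates of 0.436 and 1.01 in fl/fl and 0.899 and 1.17 in del/del overlapped, and the difference of 0.63 ± 0.79 did not pass (adjusted p = 0.590). Pcdh8, paraxial protocadherin, marks presomitic mesoderm in the embryo. It had 37 and 26, 9 and 3, and 1 and 0 reads in fl/fl and 27 and 44, 1 and 3, and 2 and 2 in del/del, so that it was highest at day 1. Over the course it fell by 3.78 in fl/fl and by 4.06 in del/del on the log2 scale. Only 2 day 1 libraries, 1 of each genotype, let Pcdh8 into the test. Its falls from day 1 are therefore not read as tests. In pooled reads the loss was 33.9-fold in fl/fl (5.86 to 1358) and 17.2-fold in del/del (6.42 to 64.8).

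Pcdh19 is the delta-2 gene of an X-linked epilepsy. Its rates were 0.460 to 0.716 in ES cells, 1.54 to 7.14 on day 5 and 1.45 to 1.95 on day 8. It rose by day 5 in fl/fl by 1.55 (adjusted p = 0.0459, and 0.0581 with the ES line as a block; lost on leaving out any of 8 libraries, 0.0619 to 0.209) and in del/del by 2.79 (adjusted p = 0.00269), where the line 3 library alone reached 7.14. On day 8 the pooled ratio between genotypes was 1.01 (0.756 to 1.37). Pcdh9, a delta-1 gene, had rates of 5.33 to 12.2 over the 12 libraries, with no contrast of days or genotypes passing and a day 8 ratio of 0.999 (0.864 to 1.16). Pcdh11x, another delta-1 gene, had 2 and 3, 11 and 22, and 9 and 1 reads in fl/fl and 2 and 2, 11 and 15, and 25 and 52 in del/del. It was below the level required for the test. With the limit of 3 reads, Pcdh11x rose from day 1 to day 5 by 2.88 in fl/fl (adjusted p = 0.00671; 32.2% of genes called) and by 3.62 in del/del (adjusted p = 0.00176; 31.3%). Its day 8 genotype difference was 2.08 ± 0.68 (adjusted p = 0.0637), and the pooled ratio 3.46 (1.79 to 7.51).

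Pcdh1 and Pcdh15 were lower in del/del at day 8. Pcdh1, known from airway epithelium, lies on the same chromosome as the clusters, at 38185915 to 38212053 in mm10. It had 365 and 456, 89 and 176, and 203 and 83 reads in fl/fl and 350 and 670, 136 and 52, and 161 and 111 in del/del. Its rates of 8.93 to 14.8 at day 1 and 2.62 to 5.57 at day 5 did not overlap, and at day 8 fl/fl was at 6.81 and 12.01 and del/del at 3.81 and 2.82. Pcdh1 fell to day 5 in fl/fl (adjusted p = 0.0105) and, by 1.59 on the log2 scale, in del/del (adjusted p = 0.00773); each call was lost on leaving out either of 2 libraries (0.0610 to 0.0651 and 0.0580 to 0.0796). At day 8 it was lower in del/del by -1.46 ± 0.39 (adjusted p = 0.0327), with the pooled rate 2.34-fold lower (1.97 to 2.77). Leaving out any of 7 single libraries ended this call (adjusted p of 0.0521 to 0.233), among them the shallowest (-1.05).

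Pcdh15, which forms the tip link of hair cells with Cdh23, was near 2 to 4 reads per M in most libraries. Its rates were 2.74 and 2.60, 3.55 and 3.08, and 3.12 and 9.40 in fl/fl and 2.27 and 2.17, 2.99 and 3.32, and 2.11 and 1.83 in del/del, so that the fl/fl day 8 library of line 3 stood highest. The day 8 groups did not overlap. The difference of -1.46 ± 0.42 passed (adjusted p = 0.0424), but not with the ES line as a block (adjusted p = 0.0543) and not without the shallowest library (-0.67, adjusted p = 0.204). In all, 9 single libraries ended the call when left out (0.0626 to 0.240). On the deposited scale Pcdh1 and Pcdh15 each differed by -0.58 at day 8 and did not pass (adjusted p of 0.350 and 0.336).

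The least read of the non-clustered genes were Pcdh17, Pcdh12 and Pcdh20. Pcdh17, a delta-2 gene of axon extension, had 15 and 11 reads in fl/fl and 9 and 5 in del/del at day 8, a pooled rate 4.13-fold lower in del/del (2.08 to 8.55). Pcdh12, expressed in endothelium and trophoblast, had 4 and 9 against 2 and 3 reads at day 8, 5.78-fold lower (1.93 to 20.7), after 7 and 21 in fl/fl and 12 and 10 in del/del at day 5. With the limit of 3 reads neither passed at day 8 (Pcdh12 -2.80 ± 1.03, adjusted p = 0.0907; Pcdh17 -2.44 ± 1.18, adjusted p = 0.179). Pcdh12 rose from day 1 to day 5 in del/del by 4.39 (adjusted p = 0.00678). Pcdh20 had 1 read in each of 3 libraries and 0 in the other 9.

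Compared per kb of exon, so that genes can be set side by side, the del/del order at day 8 was Pcdh18 (3.47 reads per kb per M), Pcdh7 (1.40), Pcdh9 (1.09), Pcdh1 (0.379) and Pcdh19 (0.179). In fl/fl it was Pcdh9 (1.09), Pcdh1 (0.885), Pcdh18 (0.675), Pcdh7 (0.349) and Pcdh15 (0.181). Pcdh9 thus had the same value in both while Pcdh18 and Pcdh7 passed it in del/del. The 12 non-clustered genes together had a rate 1.65 times as high in del/del at day 8 (1.54 to 1.76, from 4107 and 1123 reads). Without Pcdh7 and Pcdh18, left out after their values were seen, the other 10 had a ratio of 0.725 (0.665 to 0.790, from 1376 and 854 reads), which on the deposited scale was 1.12. That ratio was 0.448 when line 1 was left out of the fl/fl day 8 group and 0.846 when line 3, the shallowest library, was left out. The rates of the 10 genes were 19.9 and 37.6 in fl/fl and 16.6 and 17.1 in del/del (line 1, then line 3).

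Before day 8 no protocadherin passed between the genotypes. At day 1 and at day 5, 0 of the 11 tested protocadherins passed, against 0.00711% of all genes on each day, and 0 had an unadjusted p under 0.05 (with voom 0 at day 1 and 1 at day 5). Averaged over the days, 0 of 11 passed with limma's trend model or with voom, and 4 had an unadjusted p under 0.05 (0.107% of genes called). No protocadherin passed in the tests of whether the genotype difference changed between days: 0 genes of all passed for day 5 against day 1, 0.0213% for day 8 against day 1 and 0.00711% for day 8 against day 5. In these 3 tests 0, 3 and 4 protocadherins had an unadjusted p under 0.05, and 0, 3 and 3 with voom, where none passed either. The smallest adjusted p of a protocadherin in these was 0.107, for Pcdh18 between day 1 and day 8 (3.46 ± 0.76). A larger difference at day 8 than on the other days was therefore not shown by the test for any single gene.

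**Figure D4:**
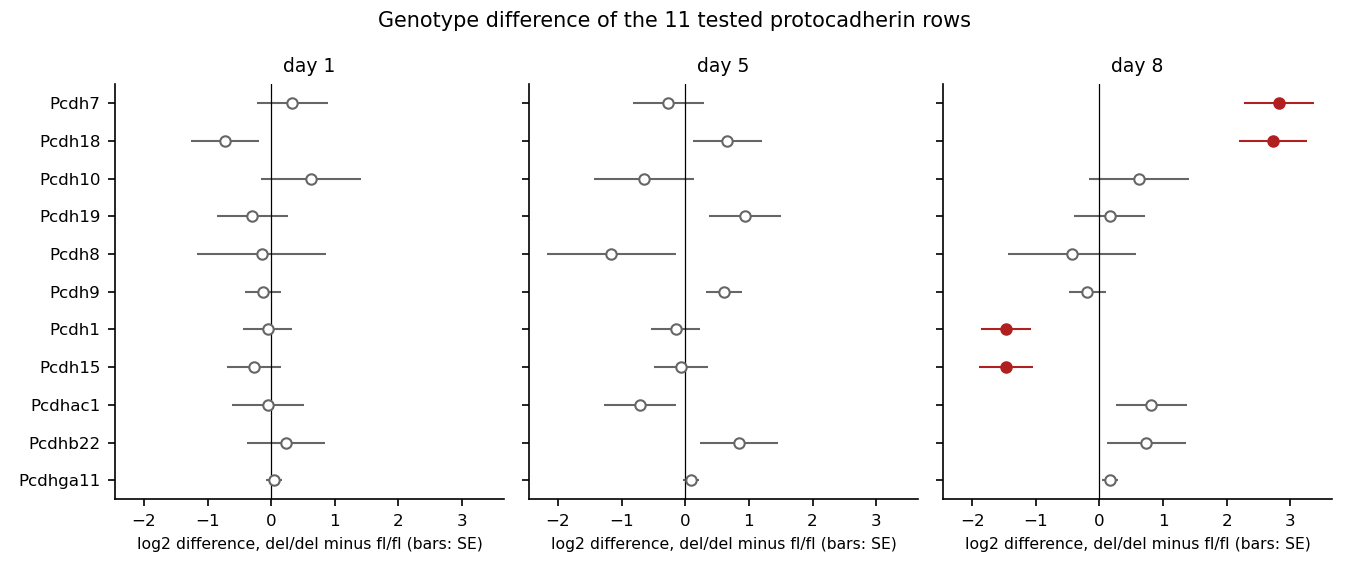
Fitted log2 difference, del/del minus fl/fl, of the 11 tested protocadherins at day 1, day 5 and day 8, with bars of 1 SE; filled red points have an adjusted p under 0.05. The 4 filled points are all at day 8, Pcdh7 and Pcdh18 to the right at 2.82 and 2.73 and Pcdh1 and Pcdh15 to the left at -1.46.

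More protocadherins passed between days than between genotypes. By day 5, 5 of the 11 tested rose and 1 fell in fl/fl (40.9% of genes called in either direction). In del/del 5 rose and 3 fell (39.5%), Pcdh10 and Pcdh8 among them, though the fall of Pcdh8 is not read as a test. In the step from day 5 to day 8, Pcdhga11 rose in fl/fl (6.73%), and Pcdhga11 and Pcdh7 rose in del/del (11.9%). Pcdhb22 and Pcdh10 were left aside as above. Over the whole course, 5 rose and 1 fell in fl/fl (55.3%), and 6 rose and 2 fell in del/del (50.7%, or 42.5% with the limit of 3 reads). These whole-course counts include Pcdhb22 as a rise and Pcdh8 as a fall in both genotypes, and Pcdh8 is the only fall in fl/fl. Neither is read as a test, since day 8 libraries alone let in Pcdhb22 and day 1 libraries alone let in Pcdh8. The 2 courses were tested for a difference only through the terms given above. Pcdhga11, Pcdh7 and Pcdh18 passed by day 5 and Pcdhac1 by day 8 in both genotypes. On the deposited scale, Pcdhga11 did not pass by day 5 in fl/fl or del/del (adjusted p of 0.224 and 0.769), nor Pcdhac1 by day 8 in fl/fl (0.280). Pcdhac1 also did not pass there with array weights (0.141) or without the fl/fl day 1 library from line 3 (0.166).

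Markers of other cell types also differed between the genotypes at day 8, and their part in the protocadherin values was not tested. The counts below stand beside 15.0% of all genes called at day 8, and some, such as the endothelial one, are near it. In bulk RNA, fewer cells of a type and less RNA per cell cannot be told apart. Of the ES markers, 12 of 12 were tested, 1 rose and 5 fell, with a median difference of -0.82 (log2). Their summed rate was 90.1 and 73.5 in del/del and 116 and 137 in fl/fl. Of the neural progenitor markers, 10 of 13 were tested, 4 rose (Zic1, Msx1, Sox3 and Nkx6-1) and 1 fell (Olig2). Their summed rate was 169 and 180 in del/del and 100 and 88.1 in fl/fl. Nes held most of these reads, with 4156 and 3980 in del/del and 2010 and 455 in fl/fl. At the lower depth of fl/fl, Sox1, Hes5 and Pax7 had 0 reads. In del/del, Hes5 also had 0, Sox1 had 2 and 0, and Pax7 had 2 and 11. Presomitic mesoderm and somite markers had 11 of 17 tested, 3 higher and 0 lower, with sums of 24.9 and 37.9 against 14.8 and 10.6 and Ripply2 at 0 reads in both. Postmitotic neuron markers summed to 190 and 95.4 in del/del and 279 and 588 in fl/fl, with 1 higher and 2 lower of 6 tested. Most of these reads came from 2 genes, Nefl and Nefm. Tubb3 went the other way, with 627 and 357 reads in del/del and 140 and 42 in fl/fl. By sign alone, 3 of the 6 were higher and 3 lower. Endothelial markers fell in 2 of 9 tested and summed to 25.9 and 44.0 against 94.95 and 94.0, and trophoblast markers fell in 7 of 11 and summed to 135 and 93.2 against 252 and 630. Extraembryonic endoderm markers fell in 4 of 11, at 531 and 827 against 1327 and 1715. Fibroblast markers rose in 4 of 13 and fell in 1, at 919 and 1023 in del/del and 828 and 1201 in fl/fl. By sign, 10 of these 13 were higher and 3 lower, with a median difference of 1.81 (log2), which the sums do not show.

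Counts for other cadherin families and for signalling partners also stand beside the 15.0% of all genes called at day 8. Of the classical and type II cadherins, 13 of 21 were tested at day 8, none rose and 2 fell, among them Cdh1, epithelial cadherin, by 1.68 on the log2 scale (adjusted p = 0.00286, and 0.0127 without the shallowest library), with a median of -0.48. Of the Fat, Dchs, Celsr and calsyntenin genes, 12 of 18 were tested and 3 rose, with a median of 0.30: Cdhr4 by 2.12 (adjusted p = 0.0137), Fat3, an atypical cadherin of neurons, by 3.29 (adjusted p = 0.0351), and Dchs1, a ligand of Fat4, by 1.69 (adjusted p = 0.0381). None of these 3 passed without the shallowest library (adjusted p of 0.0546, 0.185 and 0.188). Of the protocadherin signalling partners, 11 of 12 were tested. Fyn, a Src family kinase that binds clustered protocadherins, rose by 0.90 (adjusted p = 0.0224, and 0.106), and Ptk2, the focal adhesion kinase that alpha and gamma protocadherins inhibit, fell by 0.47 (adjusted p = 0.0353, and 0.0913).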

How the data were processed

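The submitters' processing notes name build mm10 and the tools TopHat2 2.0.12, bcl2fastq and edgeR; what each did, and how reads matching several genes were counted, is not stated there. The deposited values are log2 reads per M (RPM, per the labels), with 0 reads entered as 0.9 reads; whole reads were recovered from the step of each library for 100% of values within 0.02 reads. All 12 sample columns were used (0 unused).

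Each library was rescaled to its median gene. The 14063 genes whose deposited log2 exceeded 0 in 2 or more libraries were fitted with limma 3.58.1 in R 4.3.3 (6 group means, mean-variance trend; tested on simulated data), and p-values were adjusted by Benjamini-Hochberg over all genes at 0.05. Summed reads are given with 95% exact intervals and, at 0 reads, a floor of 3. Exon lengths came from GENCODE M21. Libraries of the same number share an ES line per the labels; same-line deviations correlated at -0.154 to 0.240 between groups, and the main model has no line term. The protocadherins and the gene lists were chosen with earlier results of these data known. The naming rule took each protocadherin with an adjusted p under 0.05 and, per class and genotype contrast, the 4 with the smallest p; from other lists, the 4 with the smallest p.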

Additional observations from a re-analysis of the deposited data

How the results depend on the processing

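At day 8 between genotypes, 4 protocadherins passed; voom on the recovered reads gave 2, array weights 1, and a model of the compared groups alone 0, as did the 3-read limit without the shallowest library. From day 1 to day 5 in fl/fl 6 passed (3 on the deposited scale), and in del/del 8 (5 with the compared groups alone). From day 5 to day 8 in fl/fl 2 passed: 0 on the deposited scale, with array weights or with the compared groups alone; 1 without a filter, with the ES line as a replicate block, with the 3-read limit and block, or with that limit and no shallowest library. From day 1 to day 8 in fl/fl 6 passed: 12 with the 3-read limit, alone, with voom or with the block, 13 without a filter, 10 with the limit and no shallowest library, and 2 with the compared groups alone. In del/del, day 5 to day 8, 4 passed, counting Pcdh10: 9 with the 3-read limit or no filter, 13 with that limit and voom or no shallowest library, and 7 with the limit and block. From day 1 to day 8 it was 8: 22 with the limit (also with the block) or no filter, and 23 with the limit and voom or no shallowest library. More genes enter under the 3-read limit, some of them only because of the del/del day 8 libraries. The main counts over time that end at day 8 include Pcdhb22, which day 8 libraries alone let into the test. The cause of the other shifts was not tested. Under the main filter the replicate block changed the calls of Pcdh15 at day 8 and of Pcdhb22 and Pcdh19 in fl/fl over time, and no other call. On the deposited scale the day 8 ratios were 2.70 (Pcdha), 4.51 (22 Pcdhb, against 2.92), 1.79 (Pcdhg) and 2.55 (non-clustered); scaled to gene reads, Pcdha was 1.85.

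Leaving out 1 library at a time gave 0 to 4 calls at day 8, 0 to 0 (day 1), 0 to 1 (day 5) and 0 to 3 over the days; 0 to 0, 0 to 3 and 0 to 3 for the changes of the genotype difference from day 1 to 5, 1 to 8 and 5 to 8; 3 to 7, 0 to 6 and 5 to 7 over time in fl/fl (day 1 to 5, 5 to 8, 1 to 8) and 4 to 8, 1 to 4 and 7 to 8 in del/del. The ratios ranged from 1.71 to 1.80 (Pcdha), 4.03 to 11.8 (21 Pcdhb), 2.56 to 3.30 (22 Pcdhb), 1.08 to 1.18 (Pcdhg), 1.24 to 1.78 (non-clustered) and 0.448 to 0.846 (non-clustered without Pcdh7 and Pcdh18). With line 1 left out of the fl/fl day 8 group, Pcdh7, Pcdh18 and Pcdh15 passed averaged over the days (adjusted p of 0.00536, 0.0397 and 0.00691), as did Pcdh1 with line 1 left out of del/del day 5 (0.0265), which also let Pcdh19 pass at day 5 (0.0264). For single protocadherins and Smchd1 over all alternatives, 1449 comparisons kept their call, 140 lost a call and 6 gained one. In 0 comparisons did a called difference change direction, and changes of direction without a call were counted as kept. Depth limits the fl/fl day 8 group most, where 0 reads of a gene allow a rate of 0.0817.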
